A study of Heterocephalus glaber with 3 samples.

Results

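The 7 genes described here are VIM, ZEB1, ZEB2, SPARC, S100A4, TAGLN and ACTA2, genes that are commonly read as signs of a mesenchymal state. They were chosen by symbol, case ignored, from a feature list of 23189 entries, and all 7 were measured. Their feature identifiers are ENSHGLG00000008081 (VIM, written Vim in the list), ENSHGLG00000018844 (ZEB1), ENSHGLG00000018878 (ZEB2), ENSHGLG00000016693 (SPARC), ENSHGLG00000016459 (S100A4), ENSHGLG00000036843 (TAGLN) and ENSHGLG00000002950 (ACTA2). The study used the naked mole-rat (Heterocephalus glaber), a long-lived African rodent, and profiled the lung tumours of 3 animals by droplet single-cell RNA sequencing, with 1 library each. All 3 animals belong to 1 group. They had received an adenovirus with CRISPR reagents, and the edits of their tumours, shared by all 3, are an inversion of Eml4-Alk and the loss of both Rb and p53. Collection followed 15 weeks after infection, and tumours were dissected from the normal tissue by hand. The labels give no strain, age, sex or untreated animal and do not say which cells the virus reached, so every comparison below is between cell classes of the same 3 animals, called replicates 1 to 3.

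In an epithelial-to-mesenchymal transition, epithelial cells lose junction proteins such as E-cadherin (CDH1) and gain the cytoskeleton and matrix of mesenchymal cells. ZEB1 and ZEB2 are zinc finger transcription factors that repress junction genes such as CDH1. Vimentin (VIM) is an intermediate filament protein, SPARC a secreted protein that binds collagen, and S100A4 a small calcium-binding protein. TAGLN (transgelin) and ACTA2 (smooth muscle actin) belong to the actin cytoskeleton of smooth muscle cells and myofibroblasts. None of these genes belongs to mesenchymal tumour cells alone, since fibroblasts, endothelial cells and many leukocytes use several of them. The question asked of the data was therefore in which lineages of these tumours each gene was found.

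The libraries held between 76093932 and 91949365 UMIs (unique molecular identifiers, a count of captured transcripts), and 24599 cells were kept after filters. The cells formed 39 clusters, and clusters were joined into classes called "X-like" from markers of each cell type, with all 7 genes left out of the clustering. Levels are CPM, counts scaled to an equal total, of the UMIs summed over all cells of a class in 1 animal, so cells with more UMIs weigh more. The 11 classes with at least 10 cells in every animal carry the description, and 7 clusters stayed unnamed. Alveolar or secretory-like cells, the main epithelial class, held all 7 measured alveolar type 2 markers at a summed level of 53573 to 80924 CPM, against 64.6 to 226 CPM in Alk-high fibroblast-like cells. Alk-high fibroblast-like clusters are those with ALK of at least 5 CPM. Fibroblast markers summed to 9226, 4957 and 6962 CPM in them and 9396, 6178 and 8509 CPM in other fibroblast-like cells. All 12 measured had a UMI in both classes, but TCF21 was at 0 in the Alk-high clusters led by PDZRN4, MMP3, GKN2 and IGFBP2. Basal markers summed to 375, 548 and 729 CPM in Alk-high cells against 25.9, 74.4 and 43.2 CPM in other fibroblast-like cells. ALK itself was sparse: the 5 Alk-high clusters held 244, 65, 20, 17 and 2 ALK UMIs. Replicate 2 alone supplied nearly all basal-like cells (201 of 203) and bone matrix-like cells (202 of 212), so these stand outside the order of levels. The numbers of cells per animal also differed within classes, from 45 to 100 for endothelial-like cells and from 341 to 606 for Alk-high fibroblast-like cells.

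VIM was found in every class, and its level varied 14.7-fold between the highest and the lowest class mean. It was 7594, 5737 and 5033 CPM in Alk-high fibroblast-like cells of replicates 1, 2 and 3, a mean of 6121 CPM ± 1323 (SD, n = 3). These 3 values lay above every value of the next class, endothelial-like cells, at 3902, 3638 and 4814 CPM (4118 ± 617). Dendritic-like cells (3916 CPM ± 68.4) and monocyte or macrophage-like cells (3851 ± 459) overlapped with endothelial-like cells in the order. Other fibroblast-like cells, at 3092, 2746 and 2892 CPM (2910 ± 174), came only after these leukocytes, and their values did not overlap with those of monocyte or macrophage-like cells. Neutrophil-like cells (1950 CPM ± 234), T-like cells (1332 ± 467) and B-like cells (1232 ± 62.3) followed. The lowest levels were in alveolar or secretory-like cells at 299, 867 and 421 CPM (529 ± 299), plasma-like cells (462 ± 151) and ciliated-like cells (418 ± 182), whose values overlapped. With each cell thinned to 2000 UMIs, 98.0% of Alk-high fibroblast-like cells and 39.9% of alveolar or secretory-like cells held a VIM UMI.

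ZEB1 was highest in endothelial-like cells, at 156, 171 and 150 CPM (159 ± 10.6), above every value of the other 10 classes. Alk-high fibroblast-like cells held 76.6, 89.5 and 96.7 CPM (87.6 ± 10.2) and other fibroblast-like cells 64.4, 92.0 and 62.1 CPM (72.8 ± 16.6), and these values overlapped. Dendritic-like cells came next at 59.1, 81.7 and 54.6 CPM (65.2 ± 14.5). Among lymphocytes, B-like cells held 43.2 CPM ± 12.03 and T-like cells 37.2 ± 7.73. At the other end, ZEB1 was 3.33, 11.4 and 5.28 CPM in alveolar or secretory-like cells (6.67 ± 4.22) and 3.12, 4.48 and 2.37 CPM in monocyte or macrophage-like cells (3.32 ± 1.07). Ciliated-like cells held 7 ZEB1 UMIs in replicate 2 and 0 in replicates 1 and 3.

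ZEB2 had a different order. It was highest in monocyte or macrophage-like cells, at 144, 173 and 121 CPM (146 ± 25.9), above every value of the next class. Other fibroblast-like cells held 77.3, 96.9 and 74.1 CPM (82.8 ± 12.4) and neutrophil-like cells 81.1, 95.1 and 54.8 CPM (77.0 ± 20.4), and these 2 classes overlapped. Alk-high fibroblast-like cells lay below both, at 47.5, 47.9 and 48.4 CPM (47.9 ± 0.48). Dendritic-like (37.4 CPM ± 1.78), B-like (30.1 ± 5.83) and endothelial-like cells (28.6 ± 11.7) overlapped in the order. T-like cells held 13.2, 21.9 and 15.1 CPM (16.7 ± 4.57), and the epithelial classes held 9.07 CPM (ciliated-like) and 6.10 CPM (alveolar or secretory-like) on average.

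**Figure D1:**
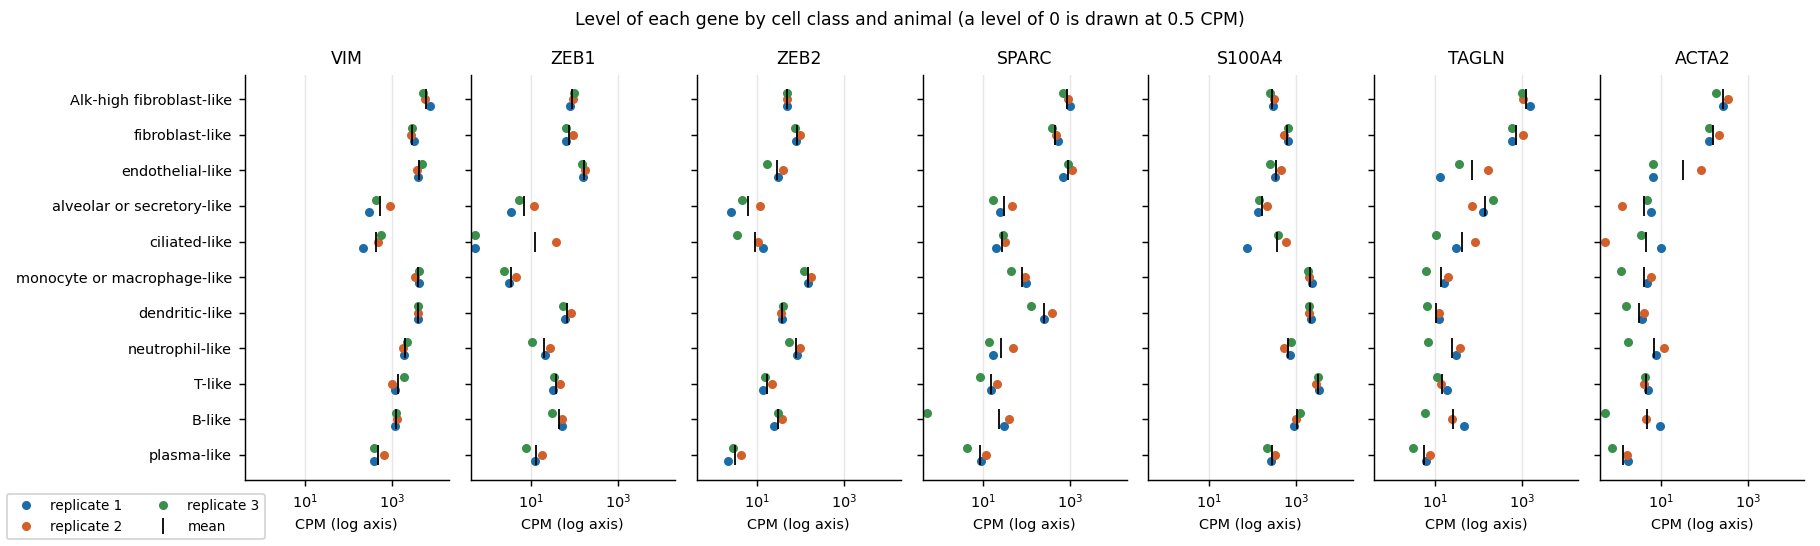
Level of each of the 7 genes in the 11 cell classes with at least 10 cells in every animal. The axis is CPM of summed UMIs on a log scale, each point is 1 animal and each bar is the mean of 3 animals. VIM is highest in Alk-high fibroblast-like cells (mean 6121 CPM), ZEB1 in endothelial-like cells (159 CPM), ZEB2 in monocyte or macrophage-like cells (146 CPM) and S100A4 in T-like cells (3160 CPM).

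The matrix gene SPARC was highest in endothelial-like cells, at 698, 1133 and 901 CPM (911 ± 218), and in Alk-high fibroblast-like cells, at 1012, 912 and 674 CPM (866 ± 174), and these values overlapped. Other fibroblast-like cells held 519, 466 and 376 CPM (454 ± 72.4), below both. Dendritic-like cells held 256, 376 and 128 CPM (253 ± 124) and monocyte or macrophage-like cells 77.2 CPM ± 28.7. The remaining classes had means between 8.29 CPM (plasma-like) and 29.5 CPM (alveolar or secretory-like).

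S100A4 was highest in leukocytes, and its 3 highest classes were T-like, dendritic-like and monocyte or macrophage-like cells. T-like cells held 3316, 2911 and 3252 CPM (3160 ± 218), above every value of the other 10 classes. Dendritic-like cells held 2084 CPM ± 147 and monocyte or macrophage-like cells 2072 ± 218, with overlapping values. B-like cells followed at 1035 CPM ± 167. Other fibroblast-like cells, at 666, 530 and 659 CPM (618 ± 77.0), lay well below these. Alk-high fibroblast-like cells held 294, 305 and 248 CPM (282 ± 30.4), close to plasma-like cells (273 CPM), and alveolar or secretory-like cells were lowest, at 130, 216 and 142 CPM (162 ± 46.4).

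The contractile genes TAGLN and ACTA2 were found mainly in fibroblast-like classes. TAGLN was 1556, 1063 and 1014 CPM in Alk-high fibroblast-like cells (1211 ± 300) and 598, 1031 and 598 CPM in other fibroblast-like cells (742 ± 250), and these overlapped through replicate 2. Alveolar or secretory-like cells came next at 126, 72.3 and 218 CPM (139 ± 73.8), and leukocyte classes had means between 5.65 CPM (plasma-like) and 25.4 CPM (B-like). ACTA2 was 269, 353 and 183 CPM in Alk-high fibroblast-like cells (268 ± 85.0) and 125, 220 and 126 CPM in other fibroblast-like cells (157 ± 54.6), which again overlapped. Endothelial-like cells held 6.65, 82.4 and 6.53 CPM of ACTA2, high in replicate 2 only, and every class further down the order had a mean of at most 7.01 CPM. With cells thinned to 2000 UMIs, TAGLN was seen in 63.6% of Alk-high and 45.6% of other fibroblast-like cells and in 6.31% of alveolar or secretory-like cells.

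Mural-like cells, the contractile cells around vessels, were few, with 11, 10 and 6 cells in replicates 1, 2 and 3. They held the highest TAGLN of any class, 7557, 3735 and 2887 CPM, and ACTA2 of 5067, 2744 and 531 CPM. Replicate 3, with 6 cells and 16 ACTA2 UMIs, lay far below the other 2 animals. The comparison of mural-like with fibroblast-like cells was not run because replicate 3 fell short of 10 mural-like cells.

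The balance between the ZEB factors differed between lineages. ZEB2 made up 97.8% of the ZEB1 and ZEB2 UMIs of monocyte or macrophage-like cells (95% Clopper-Pearson interval 97.4 to 98.1%), at 97.9, 97.5 and 98.1% in the 3 animals. The share was 79.7% in neutrophil-like cells, 53.1% in other fibroblast-like cells and 35.9% in Alk-high fibroblast-like cells. The per-animal values of the last 2 classes were 54.6, 51.3 and 54.4% against 38.3, 34.9 and 33.4%, with no overlap. T-like cells had 31.3%, and endothelial-like cells the lowest share, 16.3%, at 16.1, 18.8 and 9.80% per animal. The 2 transcripts were not corrected for length or capture, so the share is compared only between classes and says nothing of which factor is more abundant within a cell. Intervals and floors here cover counting error only.

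Within classes, clusters differed in the same balance. Among endothelial-like cells, the cluster led by MMRN1, a lymphatic gene, held 79 ZEB1 UMIs and 1 ZEB2 UMI, a ZEB2 share of 1.25%. The cluster led by FCN3, with VWF among its leading genes, had a share of 23.6%. Among dendritic-like cells, the cluster led by CLEC9A, a gene of cross-presenting dendritic cells, had shares of 26.8, 17.7 and 31.3% in the 3 animals, and the cluster led by TIMELESS 77.5, 76.0 and 83.7%. Among T-like cells, the cluster led by CD40LG, a helper cell gene, had shares of 22.9, 17.7 and 21.2%. The cluster led by the cytotoxic gene GZMA had 34.1, 51.9 and 54.8%, above the CD40LG cluster in every animal. Another T-like cluster, led by EOMES with the cytotoxic genes NKG7 and PRF1 among its leading genes, had 29.9, 24.7 and 32.7%, below the GZMA cluster and above the CD40LG cluster in each animal. A small cluster of 99 Alk-high fibroblast-like cells led by INMT had 85.7, 88.9 and 88.9%, with ZEB2 at 125, 150 and 138 CPM. It rested on 2 ALK UMIs, the fewest of the 5 Alk-high clusters. Clusters come from the same counts as these shares, so no test was made between them.

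**Figure D2:**
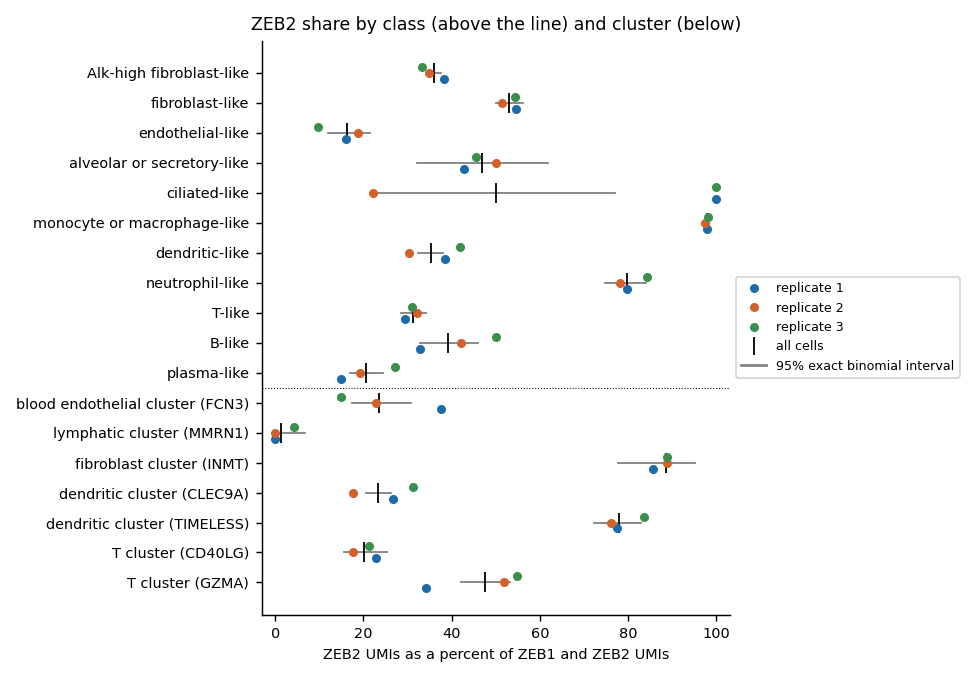
Share of ZEB2 among ZEB1 and ZEB2 UMIs, in percent, by cell class and, under the dotted line, by cluster. Each point is 1 animal, the black mark is the share over all cells and the grey line its 95% Clopper-Pearson interval. The share runs from 16.3% in endothelial-like cells to 97.8% in monocyte or macrophage-like cells, and 53.1% in other fibroblast-like cells lies above 35.9% in Alk-high fibroblast-like cells.

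Fibroblast or mural-like cells were compared with epithelial-like cells (alveolar or secretory-like with ciliated-like) to ask how far the 7 genes separate these classes. All 7 were higher in fibroblast or mural-like cells, and for each of them the lowest fibroblast or mural-like value lay above the highest epithelial-like value. Of all 14686 genes tested, 18.9% were called higher and 35.5% called in either direction (edgeR quasi-likelihood test with Benjamini-Hochberg adjustment, threshold 0.05). Since classes came from clusters of the same counts, p-values between classes are not calibrated, although the 7 genes did not enter the clustering.

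The 2 ZEB factors rose by similar amounts. ZEB1 was 75.3, 91.0 and 89.4 CPM in fibroblast or mural-like cells against 2.66, 16.3 and 4.69 CPM in epithelial-like cells, a log2 fold change of 3.79 ± 0.27 (SE, edgeR adjusted p = 4.59e-12). ZEB2 was 52.4, 64.7 and 53.8 CPM against 4.66, 11.2 and 4.30 CPM, a log2 fold change of 3.35 ± 0.27 (edgeR adjusted p = 3.57e-11). Replicate 2 had the highest epithelial level of both factors. In that animal 25 ciliated-like cells held 7 of the ZEB1 UMIs. T cell markers (8 of 9 measured with a UMI, BCL11B at 0) summed to 46.6, 437 and 167 CPM in ciliated-like cells of replicates 1, 2 and 3. The part of T cell RNA in the ZEB1 level was not tested. VIM was 6992, 4733 and 4600 CPM against 282, 791 and 437 CPM, a log2 fold change of 3.61 ± 0.27 (edgeR adjusted p = 6.43e-12). SPARC, at 947, 762 and 613 CPM against 24.0, 43.8 and 18.0 CPM, differed by 4.99 ± 0.30 (edgeR adjusted p = 1.35e-13). S100A4 had the smallest difference of the 7, with 354, 388 and 349 CPM against 118, 292 and 170 CPM and a log2 fold change of 1.07 ± 0.21 (edgeR adjusted p = 0.000127).

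ACTA2 had the largest difference of the 7. It was 282, 318 and 172 CPM in fibroblast or mural-like cells against 6.66, 1.02 and 4.69 CPM in epithelial-like cells, a log2 fold change of 5.80 ± 0.42 (edgeR adjusted p = 4.53e-12). TAGLN was 1464, 1063 and 934 CPM against 107, 74.4 and 195 CPM, a log2 fold change of 3.17 ± 0.43 (edgeR adjusted p = 9.05e-07). Its epithelial level differed between clusters, whose values are given further on. Without the Alk-high cells, a choice made after seeing the data, all 7 were still called higher, with log2 fold changes from 1.93 for S100A4 to 5.67 for ACTA2. With classes taken from marker UMIs of single cells instead of clusters, 4 of 7 were called higher, in 36, 11 and 43 epithelial-like cells per animal. Not called were both ZEB factors (edgeR adjusted p = 0.237 for ZEB1 and 0.0534 for ZEB2) and S100A4, which stood at -0.12 (edgeR adjusted p = 0.823).

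The other genes of the transition programme divided in the same way. Over all genes tested, 18.9% were called higher and 16.6% lower. Of the epithelial junction genes and ZEB targets, 15 of 20 were measured and 14 tested, and all 14 fell in fibroblast or mural-like cells, with a median log2 fold change of -5.31 against 0.10 for all genes tested. CDH1, the junction cadherin, was 0.163 CPM ± 0.111 against 69.1 ± 5.15, and CLDN7, a tight junction claudin, 2.81 ± 0.836 against 324 ± 87.2. The epithelial factor OVOL1 had 0 UMIs against 18. Of 14 tested mesenchymal surface and matrix genes 13 rose and 0 fell, with a median of 4.74. Among them were POSTN (164 CPM ± 33.1 against 0.991 ± 0.977), the matrix protein periostin, COL1A2 (1482 ± 918 against 20.1 ± 7.49), a collagen I chain, and MMP2 (357 ± 129 against 5.68 ± 1.64), a matrix-degrading enzyme. Markers named the classes, with COL1A2 among the fibroblast markers and CDH1, CLDN4 and CLDN7 among the general epithelial markers. The place of these genes is therefore not independent, here and in the later comparisons with epithelial-like cells.

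Of 4 tested transition transcription factors besides the ZEBs, 3 rose and 0 fell. TWIST2 was 4.55 CPM ± 1.69 against 0.340 ± 0.588, TCF4 19.7 ± 5.67 against 2.79 ± 1.05, and SNAI1 29.9 ± 5.79 against 8.17 ± 3.11. Of 11 tested contractile and actin-binding genes 9 rose and 0 fell, with a median log2 fold change of 2.23. DES, the muscle filament desmin, had 156 UMIs against 0, and MYLK, the kinase of myosin light chains, 11.9 CPM ± 3.38 against 0.562 ± 0.518. Of 14 tested TGF beta pathway genes, the signalling route best known for driving this transition, 7 rose and 0 fell, with a median of 0.86. LTBP2, which binds matrix fibres, had 488 UMIs against 0, and ENG, a TGF beta co-receptor, was 25.1 CPM ± 4.56 against 2.49 ± 1.72.

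**Figure D3:**
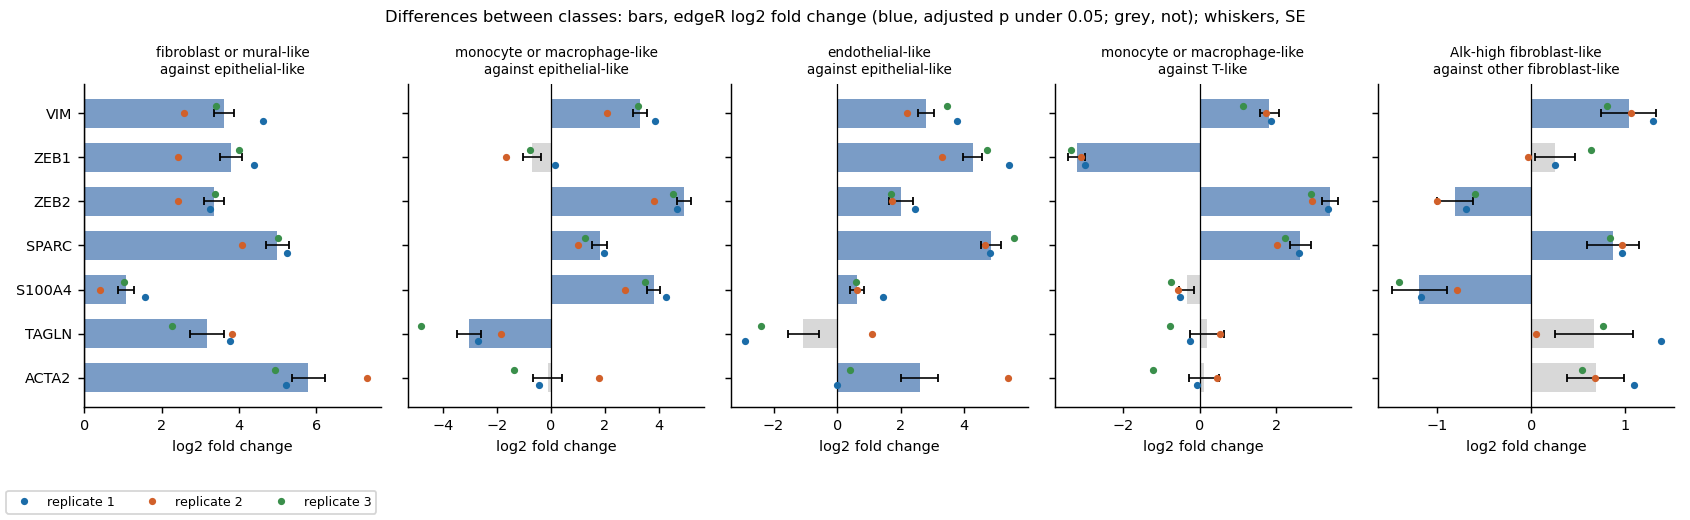
Log2 fold change of each of the 7 genes in the 5 comparisons between cell classes, as bars with whiskers of 1 SE from edgeR. Blue bars passed an adjusted p of 0.05 and grey bars did not, and each point is 1 animal's log2 ratio of (CPM + 1). All 7 are higher in fibroblast or mural-like than in epithelial-like cells, whereas TAGLN (-3.04) is lower and ZEB1 (-0.71) not called in monocyte or macrophage-like against epithelial-like cells.

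Monocyte or macrophage-like cells were compared with epithelial-like cells because most of the cells kept were in immune classes. Of the 7 genes, 4 were higher and 1 was lower, where 26% of all genes tested were called higher, 25.4% lower and 51.4% either way. ZEB2 was 144, 173 and 121 CPM against 4.66, 11.2 and 4.30 CPM, a log2 fold change of 4.92 ± 0.26 (edgeR adjusted p = 2.55e-15). S100A4 rose by 3.80 ± 0.23 (edgeR adjusted p = 2.71e-14), VIM by 3.30 ± 0.26 (edgeR adjusted p = 1.12e-11) and SPARC by 1.81 ± 0.29 (edgeR adjusted p = 4.56e-06) on the log2 scale. TAGLN fell by 3.04 ± 0.45 on the log2 scale (edgeR adjusted p = 1.40e-06), with a mean of 13.9 CPM in monocyte or macrophage-like cells against 107, 74.4 and 195 CPM in epithelial-like cells.

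ZEB1 (-0.71 ± 0.34, edgeR adjusted p = 0.0823) and ACTA2 (-0.12 ± 0.54, edgeR adjusted p = 0.877) did not pass the threshold between these classes. For ZEB1 the call depended on the setting: DESeq2 gave -1.01 with an adjusted p of 0.00792, and a log2 fold change of 1.19 resulted when cells were thinned to 2000 UMIs. All 14 tested epithelial junction genes fell, among them EPCAM (1.64 CPM ± 0.265 against 789 ± 164), a surface glycoprotein of epithelial cells. Of the matrix genes, 3 of 14 were higher and 4 lower, where 26% of all genes tested were called higher and 25.4% lower. ITGA5, the fibronectin receptor chain, was 68.4 CPM ± 14.2 against 14.8 ± 0.740, and TNC, the matrix protein tenascin, 7.20 ± 3.75 against 40.8 ± 5.45. Against the same shares, 4 of 14 TGF beta pathway genes were higher and 5 lower, the ligand TGFB2 at 0.293 CPM ± 0.124 against 12.8 ± 6.12. Of the 4 tested transition transcription factors only SNAI1 was called (30.4 CPM ± 11.1 against 8.17 ± 3.11).

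The comparison of monocyte or macrophage-like with T-like cells set the 2 ZEB factors against each other in the main immune lineages. ZEB1 was 3.12, 4.48 and 2.37 CPM in monocyte or macrophage-like cells against 31.7, 46.0 and 33.8 CPM in T-like cells, and fell by 3.21 ± 0.22 on the log2 scale (edgeR adjusted p = 7.71e-13). ZEB2 was 144, 173 and 121 CPM against 13.2, 21.9 and 15.1 CPM, and rose by 3.40 ± 0.20 (edgeR adjusted p = 2.87e-14). The values did not overlap for either factor, and both calls held in every alternative tried. VIM rose by 1.82 ± 0.24 (edgeR adjusted p = 3.95e-07) and SPARC by 2.62 ± 0.27 (edgeR adjusted p = 4.07e-09), so 3 of 7 were higher and 1 lower, where 25.2% of all genes tested were called higher, 21.6% lower and 46.8% either way.

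S100A4 stood at -0.34 ± 0.20 (edgeR adjusted p = 0.169) between these 2 classes, and TAGLN and ACTA2 were not called (edgeR adjusted p = 0.777 and 0.833). Of the transition transcription factors SNAI1 was higher (30.4 CPM ± 11.1 against 6.79 ± 0.254) and TWIST2 lower (0 UMIs against 19). In the lists around them 2 of 14 matrix genes were higher and 1 lower, and 5 of 14 TGF beta genes higher and 4 lower. Over all genes tested, 25.2% were called higher and 21.6% lower, so these counts are not read as a trait of the lists. THY1, a surface protein known from thymocytes and fibroblasts, was 0.456 CPM ± 0.308 against 27.1 ± 4.49. ENG was 16.1 CPM ± 4.04 against 1.39 ± 1.38.

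Endothelial-like cells, the lining of vessels, shared most of the 7 genes with fibroblasts. Against epithelial-like cells 6 of 7 were called higher and 0 lower, where 10.6% of all genes tested were called higher, 15.2% lower and 25.8% either way. ZEB1 was 156, 171 and 150 CPM against 2.66, 16.3 and 4.69 CPM, a log2 fold change of 4.27 ± 0.30 (edgeR adjusted p = 4.51e-12). SPARC rose by 4.84 ± 0.31 (edgeR adjusted p = 6.42e-13), VIM by 2.79 ± 0.26 (edgeR adjusted p = 1.23e-09) and ZEB2 by 2.02 ± 0.38 (edgeR adjusted p = 0.000132) on the log2 scale. S100A4 rose by 0.61 ± 0.22 (edgeR adjusted p = 0.0356), a call lost without the animal as a block (0.60, adjusted p = 0.0847). With classes from marker UMIs only VIM and SPARC stayed called higher, on 13 and 10 endothelial-like cells of replicates 1 and 3, and ZEB1 and ZEB2 were not called.

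The contractile genes of endothelial-like cells rested on replicate 2. ACTA2 was called higher at 2.60 ± 0.57 (edgeR adjusted p = 0.000919), but its values were 6.65, 82.4 and 6.53 CPM, and without replicate 2 the log2 fold change was -0.08 (edgeR adjusted p = 0.981). TAGLN was 13.3, 162 and 35.9 CPM, not called at -1.06 ± 0.50 (edgeR adjusted p = 0.122) and lower without replicate 2 (-2.97, edgeR adjusted p = 0.00109). Of 11 measured mural markers 9 had a UMI in endothelial-like cells, with a summed level of 66.5, 236 and 42.5 CPM, highest in the same animal, and PDGFRB and LMOD1 at 0. The part of mural RNA in these values was not tested.

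Of 14 tested TGF beta pathway genes 6 were higher and 1 lower in endothelial-like cells. Over all genes tested, 10.6% were called higher and 15.2% lower. ENG was 351 CPM ± 64.0 against 2.49 ± 1.72, and ACVRL1, a receptor of endothelial BMP signalling, 38.0 ± 19.2 against 0.810 ± 1.08. TCF4 was 78.8 CPM ± 18.3 against 2.79 ± 1.05. Of 14 epithelial junction genes 10 were lower and 0 higher, and CDH1, itself a general epithelial marker, had 0 UMIs against 354. Of 14 matrix genes 6 were higher and 2 lower. Fibroblast markers summed to 130, 409 and 1561 CPM in endothelial-like cells, with TCF21, LUM and DPT at 0, and their part in the matrix genes was not tested. SPARC also differed between endothelial-like clusters: the cluster led by FCN3 held 1309, 1425 and 1056 CPM and that led by MMRN1 98.7, 64.0 and 666 CPM. The 2 measured lymphatic markers, LYVE1 and PROX1, summed to 853, 649 and 330 CPM in the FCN3 cluster and 1632, 853 and 600 CPM in the MMRN1 cluster. The fibroblast marker sum of the MMRN1 cluster was 118 and 128 CPM in replicates 1 and 2 and 3470 CPM in replicate 3, the animal with the high SPARC value.

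Alk-high fibroblast-like cells were set against the remaining fibroblast-like cells to ask how the 7 genes differed between these 2 classes. Both were named by fibroblast markers, and the lineage of the Alk-high cells was not tested. The result was split, with 2 of 7 called higher, 2 lower and 3 not called, where 15% of the 14362 genes tested were called higher, 13.3% lower and 28.3% either way. The Alk-high cells held more UMIs, with a median of 15339.5 per cell against 5623. The part of this difference in the result was not tested beyond the alternative in which each cell was thinned to 2000 UMIs. The 5 Alk-high clusters also took different shares of the animals: the cluster led by MMP3 had 288 of its 306 cells from replicate 1.

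VIM was higher in Alk-high cells, at 7594, 5737 and 5033 against 3092, 2746 and 2892 CPM, a log2 fold change of 1.04 ± 0.29 (edgeR adjusted p = 0.00720). SPARC, at 1012, 912 and 674 against 519, 466 and 376 CPM, was higher by 0.87 ± 0.27 (edgeR adjusted p = 0.0159). That call was lost with DESeq2 (0.72, adjusted p = 0.0914), without the animal as a block (edgeR 0.88, adjusted p = 0.136) and without replicate 1 (edgeR 0.81, adjusted p = 0.115). ZEB2 was lower, at 47.5, 47.9 and 48.4 against 77.3, 96.9 and 74.1 CPM, and fell by 0.82 ± 0.19 on the log2 scale (edgeR adjusted p = 0.00137). ZEB1 stood at 0.25 ± 0.21 (edgeR adjusted p = 0.410), with overlapping values, so the lower ZEB2 share of Alk-high cells went with lower ZEB2 and no called change of ZEB1.

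S100A4 was lower in Alk-high cells, at 294, 305 and 248 against 666, 530 and 659 CPM, and fell by 1.20 ± 0.29 on the log2 scale (edgeR adjusted p = 0.00192). S100A4 is high in T-like cells, and T cell markers (9 of 9 measured with a UMI in both classes) summed to between 47.8 and 80.3 CPM in Alk-high cells and between 102.3 and 193 CPM in other fibroblast-like cells. Among the other fibroblast-like clusters this sum was 1483, 1306 and 1449 CPM in a cluster of 63 cells led by MAP1LC3C. It was 30.1 to 69.5 CPM in the cluster led by FIBIN and 46.2 to 105 CPM in that led by CCL19. The part of T cell RNA in the S100A4 difference was not tested. TAGLN (0.66 ± 0.42, edgeR adjusted p = 0.251) and ACTA2 (0.69 ± 0.30, edgeR adjusted p = 0.0893) were not called. With a mitochondrial limit of 10% and new clusters, both were called higher, TAGLN at 1.40 (edgeR adjusted p = 0.00991) and ACTA2 at 2.40 (edgeR adjusted p = 1.24e-06).

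The contractile genes and S100A4 also varied among the other fibroblast-like clusters. ACTA2 was 271, 265 and 190 CPM in the cluster led by FIBIN and MFAP4 and 7.55, 64.6 and 4.19 CPM in the cluster led by CCL19 and CLEC3B, with no overlap. S100A4 ran the other way, at 387, 336 and 268 CPM in the FIBIN cluster and 860, 797 and 1232 CPM in the CCL19 cluster. Among Alk-high clusters, ACTA2 was similar in the cluster led by PDZRN4 (285, 375 and 165 CPM) and that led by GKN2 and ECEL1 (275, 300 and 211 CPM), whose leading genes included TAGLN and ACTA2. ZEB1 separated these 2 clusters, with 91.5, 96.2 and 110 CPM in the first and 17.4, 16.2 and 36.3 CPM in the second.

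The other transition genes were called in both directions, where 15% of all genes tested were called higher and 13.3% lower. The lists are small, so their counts are given without reading a direction for a list. Of 5 tested transition transcription factors 0 were higher and 3 lower, with a median log2 fold change of -0.89 against 0.02 for all genes tested. TWIST2 was 0.574 CPM ± 0.147 against 18.1 ± 0.906, a log2 fold change of -4.89 ± 0.52 (edgeR adjusted p = 1.87e-07). POSTN was 30.7 CPM ± 8.12 against 676 ± 277, and FAP, a protease of activated fibroblasts, 1.497 ± 1.82 against 17.4 ± 7.34. Of 14 matrix genes 3 were higher and 5 lower. Of 11 contractile genes 2 were higher and 3 lower, with the smooth muscle myosin MYH11 at 1.11 CPM ± 0.708 against 17.04 ± 12.7 and the enteric smooth muscle actin ACTG2 at 20.3 ± 3.21 against 4.46 ± 3.31. Of 14 TGF beta genes 0 were higher and 4 lower, among them ACVRL1 (1.29 CPM ± 0.179 against 12.9 ± 3.34).

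Of the epithelial junction genes, 2 of 14 were higher in Alk-high cells and 1 lower, where 15% of all genes tested were called higher and 13.3% lower. EPCAM was 25.1, 54.2 and 16.7 CPM in Alk-high cells against 1.44, 1.23 and 3.68 CPM in other fibroblast-like cells, a log2 fold change of 3.77 ± 0.40 (edgeR adjusted p = 4.38e-09). The 720 EPCAM UMIs came from 14.8% of Alk-high cells, or 3.64% with cells thinned to 2000 UMIs. CDH1 did not accompany EPCAM there, with 5 UMIs in all Alk-high cells. EPCAM and CDH1 had 3335 and 298 UMIs in alveolar or secretory-like cells and 495 and 56 in ciliated-like cells. In an unnamed cluster led by the keratin gene KRT5 they had 1013 and 37, so their ratio was not constant. T-like cells, which should lack EPCAM, held 3.26, 2.31 and 3.56 CPM and a thinned share of 0.558% at a median depth of 2621 UMIs. The source of the EPCAM UMIs in Alk-high cells was not tested.

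The Alk-high cells with an EPCAM UMI (92, 57 and 67 cells) held VIM and ZEB1 at levels close to those of the other Alk-high cells. VIM was 7806, 5835 and 5486 CPM in them against 7538, 5699 and 4961 CPM in the Alk-high cells without one, and ZEB1 75.0, 94.6 and 91.5 against 77.0, 87.4 and 97.5 CPM. ZEB2 was 40.5, 38.4 and 34.0 against 49.3, 51.7 and 50.7 CPM, and SPARC 726, 633 and 512 against 1087, 1021 and 699.6 CPM, both lower in each of the 3 animals. S100A4 was also lower in each animal, at 247, 221 and 159 against 306, 338 and 262 CPM. TAGLN was 1257, 1327 and 1490 against 1634, 959.6 and 938 CPM, and ACTA2 223, 554 and 375 against 281, 274 and 152 CPM. Both contractile genes were lower in replicate 1 and higher in replicates 2 and 3. KRT8, an epithelial keratin, was 70.9, 106 and 168 CPM against 15.0, 15.0 and 22.3 CPM. Cells with more UMIs are more likely to hold an EPCAM UMI, and no test was made on this split.

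**Figure D4:**
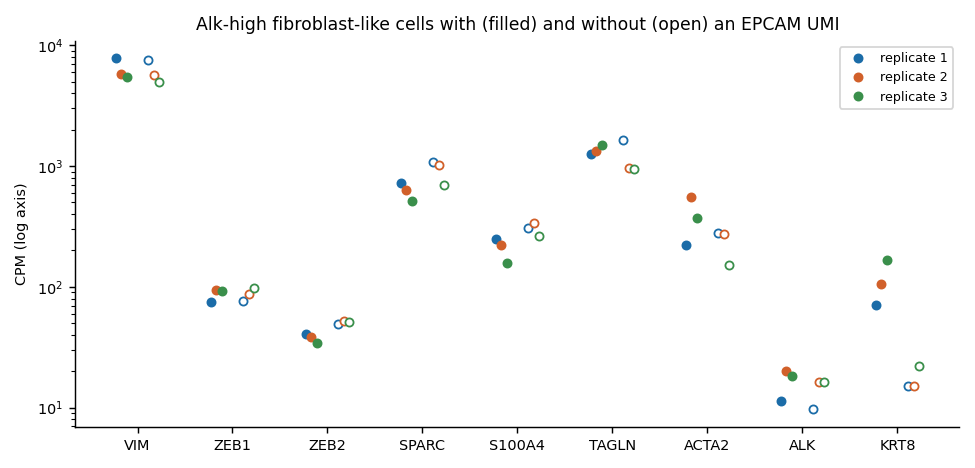
Level of the 7 genes, ALK and KRT8 in Alk-high fibroblast-like cells with and without an EPCAM UMI, in CPM on a log scale. Filled points are cells with an EPCAM UMI, open points cells without one, and each point is 1 animal. VIM and ZEB1 lie at similar levels in both sets, ZEB2, SPARC and S100A4 are lower and KRT8 is higher in the cells with an EPCAM UMI in all 3 animals.

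Within the epithelial lineage, cells that held a junction gene were searched for the 7 genes. Of 422 alveolar or secretory-like cells, 371 held an EPCAM or CDH1 UMI, and 254 of these (68.5%, Clopper-Pearson interval 63.5 to 73.2%) also held VIM. ZEB1 was found in 14 of the 371 cells (3.77%) and ZEB2 in 15 (4.04%). With cells thinned to 2000 UMIs these shares were 37.0% for VIM, 0.763% for ZEB1 and 0.382% for ZEB2, the last 2 from 2 and 1 of 262 cells. The VIM share lay below that of every class as a whole, of which ciliated-like (38.5%) and plasma-like cells (45.6%) were lowest among the other classes. The ZEB1 share is close to the thinned 0.791% of all monocyte or macrophage-like cells, the class with the lowest ZEB1 level, at median depths of 6476.5 and 7810 UMIs. For ZEB2 the class with the lowest level, plasma-like cells, had a thinned share of 0.421% at a median depth of 14198 UMIs. None of these classes is known to lack the gene, and free RNA was not measured, so a UMI of VIM or a ZEB factor in an alveolar or secretory-like cell is not read as expression by that cell. Transcripts typical of other classes were widespread, with an SFTPC UMI in 27.0% of T-like cells. Bone matrix markers summed to 5.82, 546 and 7.48 CPM in alveolar or secretory-like cells and 10.7, 764 and 2.97 CPM in T-like cells, high in replicate 2. The part of such RNA in the levels of the 7 genes was not tested. Of 117 ciliated-like cells with EPCAM or CDH1, 1 held ZEB1.

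TAGLN differed between epithelial clusters. The cluster led by SFTPC, the surfactant gene of alveolar type 2 cells, held 149, 21.1 and 1.45 CPM, high in replicate 1 only. The cluster led by SCGB3A2, a secretory airway gene, held 114, 203 and 313 CPM, and 40 of its 160 cells with EPCAM or CDH1 (25.0%) also held TAGLN, against 12 of 211 (5.69%) in the SFTPC cluster. ACTA2 was at most 6.15 CPM in any animal in both clusters.

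An unnamed cluster of 82 cells led by the basal keratin gene KRT5 held TAGLN at the level of fibroblasts without ACTA2 to match. TAGLN was 703, 2464 and 1354 CPM there, from 291, 62 and 1087 UMIs in 22, 4 and 56 cells. ACTA2 was 2.42, 318 and 22.4 CPM, from 1, 8 and 18 UMIs, so the single high value came from 4 cells. Of 75 cells with EPCAM or CDH1 in that cluster, 62 (82.7%, Clopper-Pearson interval 72.2 to 90.4%) also held TAGLN and 73 (97.3%) VIM, while 10 held ZEB1 and 5 ZEB2. Thinned to 2000 UMIs, TAGLN was found in 64.6% of its cells and ACTA2 in 2.53%, against 63.6% for TAGLN in Alk-high fibroblast-like cells and 2.82% in T-like cells. Basal markers summed to 11755, 7909 and 10159 CPM. Fibroblast markers summed to between 263 and 318 CPM with TCF21 and LUM at 0, and 7 of 11 mural markers had a UMI, with ABCC9, PDGFRB, COX4I2 and NOTCH3 at 0. The cluster stayed unnamed because basal and general epithelial markers both passed.

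**Figure D5:**
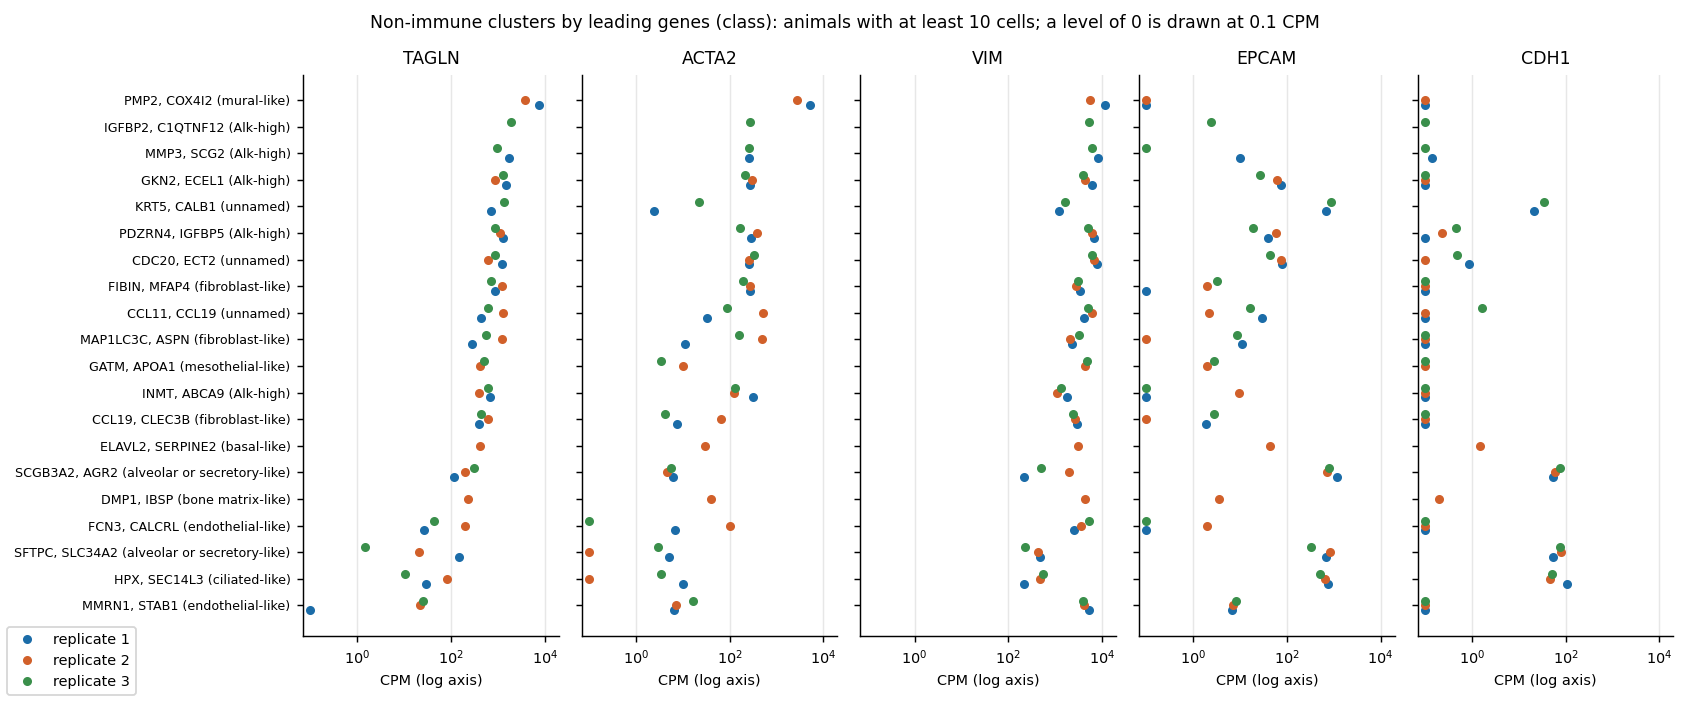
Levels of TAGLN, ACTA2, VIM, EPCAM and CDH1 in the 20 clusters of non-immune cells, in CPM on a log scale, each point 1 animal with at least 10 cells in that cluster. The KRT5-led cluster has TAGLN of 703 and 1354 CPM in replicates 1 and 3, within the range of fibroblast-like clusters, and ACTA2 of 2.42 and 22.4 CPM. ACTA2 is between 190 and 271 CPM in the FIBIN-led cluster and between 4.19 and 64.6 CPM in the CCL19-led cluster.

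The genes whose pattern was most like each of the 7 were found by Pearson r of log2(CPM + 1) over 40 sums of class and animal, among 6874 genes with a symbol and a mean of at least 5 CPM. The sums share libraries and differ in depth, so r is a description. VIM was most like LGALS1 (r = 0.87), BLVRA (0.83) and ARL6IP5 (0.79). ZEB1 was most like TTC3 (0.76), TBXA2R (0.75) and GTDC1 (0.75), and ZEB2 like SLC8B1 (0.81) and KCTD12 (0.80). SPARC was most like TFPI (0.89) and, among those reported, LAMB1 (0.87), and S100A4 like CALM3 (0.75), TLR9 (0.73) and DOCK10 (0.72). TAGLN was most like DMPK (0.90), PALLD (0.90) and GUCY1B1 (0.90), and ACTA2 like MMP3 (0.91), RBM24 (0.90) and NES (0.89).

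Among the 7 themselves, TAGLN and ACTA2 had the highest likeness (r = 0.87 over the 40 sums), followed by VIM and ZEB2 (0.77), SPARC and ACTA2 (0.73) and SPARC and VIM (0.72). ZEB1 and ZEB2 were only weakly alike (0.39). S100A4 was not like the contractile genes or SPARC, with r of -0.17 with TAGLN, -0.04 with ACTA2 and -0.03 with SPARC.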

How the data were processed

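The authors deposited 1 matrix of whole-number UMI counts for each animal, genes by barcodes and not normalized, made with Cell Ranger 7.1.0 per the file headers (8.0.0 per the submitters' processing notes), with 76093932, 86575320 and 91949365 UMIs over 9500, 10000 and 10000 barcodes. The genome build is not given in the sources used here. Of 23189 features 11611 have no symbol. Libraries shared 24, 21 and 31 barcodes in pairs.

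Cells with at least 1000 UMIs, 500 genes and under 20% mitochondrial counts (13 genes) were kept. Scrublet's own threshold marked 1 of 25044 cells, so the 445 cells scoring 0.2 or more were left out, a limit chosen after seeing the data. Kept were 7929, 8891 and 7779 cells. Log values of counts per 10000 went into Leiden clustering (resolution 1, 2000 variable genes without the 7 genes and 5 gene lists, 30 components, 20 neighbours, scanpy 1.11.5, leidenalg 0.10.2, igraph 0.11.9), which gave 39 clusters. A cluster was named where at least 3 markers of 1 lineage were detected and no other lineage came close or led its top genes. This naming rule was settled after seeing the data.

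Counts were summed per animal and class (at least 10 cells) and tested in R 4.3.3 by the quasi-likelihood test of edgeR 4.0.16 (filterByExpr and TMM, Benjamini-Hochberg, threshold 0.05), in 1 fit over all named classes with animal as block. SE is the log2 fold change divided by the root of F. The block rests on both classes coming from the same animal. Deviations from class means correlated at a median of 0.263 between classes of the same animal (157 of 165 pairs above 0.1) and -0.127 between animals. Deviations of a class cancel out over its animals, so the negative value follows from the construction and is not read as evidence for the block. The script was tested on simulated counts of fibroblast or mural-like against epithelial-like cells. It called 3 of 67 changed genes at a log2 fold change of 1, 60 of 67 at 2 and 65 of 66 at 3. There were 6 false calls among 13972 genes tested. A gene not called at a small fold change is therefore not shown to be equal between classes. The 7 genes, the lists and the markers were chosen with earlier results of these data known. Named in the text are the 7 genes, the 3 called genes of largest fold change per list and comparison (not all are printed) and up to 3 genes most like each of the 7 (2 such genes are not reported here). KRT8, ALK and cluster-leading genes were named after their values were seen. Alternatives were DESeq2 1.42.0, no filter, no block, only the classes compared, leaving out each animal, thinning to 2000 UMIs, other cell filters and clusterings, split counts and classes from marker UMIs, and 4 chosen after seeing the data. Of 6 comparisons 5 were run. Gene symbols come from the feature lists, and no sequence is printed.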

Additional observations from a re-analysis of the deposited data

How the results depend on the processing

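Of 580 values of the 7 genes under alternatives, 534 kept their direction and their side of the threshold, 13 lost the call, 16 gained one and 17 reversed. ZEB1 and ZEB2 between monocyte or macrophage-like and T-like cells, and VIM in all 5 comparisons, kept their calls under every alternative run. The number called higher in fibroblast or mural-like cells fell from 7 to 4 with classes from marker UMIs, where ZEB1, ZEB2 and S100A4 lost their calls. There S100A4 reversed to -0.12, SPARC and ACTA2 in monocyte or macrophage-like against epithelial-like cells to -0.30 and 0.93, S100A4 and ACTA2 in endothelial-like cells to -2.57 and -5.40, and ACTA2 between monocyte or macrophage-like and T-like cells to -0.52. Endothelial-like cells then had 2 genes higher, VIM and SPARC, and 1 lower, on 13 and 10 cells, since replicate 2 had 5 and was dropped. ZEB1 and ZEB2 thus lost their calls in endothelial-like cells. The comparison of Alk-high cells gave no value.

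In monocyte or macrophage-like against epithelial-like cells 2 genes instead of 1 were lower with DESeq2, a mitochondrial limit of 10%, no doublet removal, resolution 2 and the 7 genes and lists kept in clustering, and 1 to 2 when an animal was left out. The one added was ZEB1. ZEB1 reversed to 1.19 with thinned cells and 0.46 with split counts. ACTA2, not called, reversed to 0.10 with no replicate block, 0.059 with a minimum of 2000 UMIs and 0.079 with unnamed clusters joined, and ran from -0.83 to 0.55 when an animal was left out. In endothelial-like cells 1 gene, TAGLN, was lower with no filter, a mitochondrial limit of 10% and no doublet removal, and 0 to 1 when an animal was left out, and ACTA2 then ran from -0.084 (without replicate 2) to 3.34. Between monocyte or macrophage-like and T-like cells 2 genes were lower when only these classes were fitted, the one added being S100A4. ACTA2 there was -0.18 with DESeq2, and when an animal was left out ACTA2 ran from -0.41 to 0.53 (-0.02 without replicate 1) and TAGLN from -0.26 to 0.44. In Alk-high cells 1 gene was higher with DESeq2, 1 with no replicate block, 1 to 2 when an animal was left out and 4 with a mitochondrial limit of 10%. DESeq2's scaling moved the 7 genes by a median of -0.30 in monocyte or macrophage-like and -0.16 in fibroblast or mural-like against epithelial-like cells.

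The mean of ZEB2 in monocyte or macrophage-like cells was 175.6 CPM with thinned cells against 146. The causes of these changes were not tested. No replicate block changed only the calls of SPARC in Alk-high cells (0.88) and of S100A4 in endothelial-like cells (0.60). Depth limits ZEB1, ZEB2 and ACTA2 in epithelial-like, ciliated-like and endothelial-like cells, where a value can rest on under 10 UMIs.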

Other observations

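Cell groups outside the order of levels also held the 7 genes. An unnamed cluster led by the mitosis genes CDC20 and ECT2, with ALK at 20.4 CPM, had VIM of 7643, 6813 and 6092 CPM, ZEB1 of 71.8, 85.5 and 104 CPM and ACTA2 of 253, 254 and 335 CPM in replicates 1, 2 and 3. Its values of these 3 genes lay within or near the range of Alk-high fibroblast-like cells. It held EPCAM at 78.4, 73.3 and 43.7 CPM, with 503 EPCAM and 4 CDH1 UMIs. Mesothelial-like cells, the covering of the lung, held VIM at 9803, 4433 and 4815 CPM and TAGLN at 869.9, 412 and 510 CPM, but ACTA2 at only 6.90, 9.90 and 3.496 CPM, from 7, 34 and 116 cells.

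Bone matrix-like cells, almost all from replicate 2, held VIM at 4405 CPM, SPARC at 858 CPM and ZEB2 at 90.8 CPM in that animal. Osteoclast-like cells of the same animal held VIM at 5325 CPM and S100A4 at 3514 CPM, with SPARC at 12.7 CPM. The basal-like cluster led by ELAVL2 and SERPINE2, with KRT14 and SPINK5 among its leading genes, held VIM at 3081 CPM, S100A4 at 1259.55 CPM and TAGLN at 417 CPM in replicate 2. Its name is in doubt, since the basal markers KRT5 and DSG3 were at 0 there and only 4 of 6 measured basal markers had a UMI. Each of these 3 groups rests on 1 animal. The unnamed cluster led by FOXP3, a regulatory T cell gene, held S100A4 at 2844, 2322 and 2831 CPM and a ZEB2 share of 39.3%.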
